A study of Mus musculus with 6 samples.

Results

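The genes described here are *Klf2*, *Klf3*, *S1pr1*, *S1pr4*, *Ccr7* and *Gpr183*, 6 of the 27179 genes in the count table of this study. They are a transcription factor that controls how lymphocytes leave a tissue, a related factor, and 4 receptors grouped under lymphocyte homing and exit. They were selected on their levels by genotype and day in these same libraries. For that reason their genotype and day differences are given as descriptions, with standard errors and without p-values.

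The libraries were made from germinal center (GC) B cells of the spleen of C57BL/6 mice. They are labelled by genotype as wild-type (WT) or as lacking the IL-21 receptor (Il21r-/-). All mice were immunized with the hapten-protein conjugate NP-KLH precipitated in alum, and spleens were taken on day 7, 10 or 14. The cells were enriched on IgG1 beads and sorted as NP-binding, IgG1+, B220+, CD38- and negative for CD138, IgM, IgD and Gr1. There was 1 library for each genotype on each day, so 3 libraries per genotype and 6 in all.

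The design limits these groups as a model in several ways. By the study's methods, irradiated Ly5.1 hosts given WT or Il21r-/- bone marrow were used in every experiment except the EdU and BrdU time course. This covers the sequencing, although its own section does not restate it. In such mice the non-hematopoietic cells, and any B cells that outlast irradiation, are those of the host. The labels describe each sample as coming from its own mouse, whereas the methods and a legend describe the sorted cells as coming from several mice of each genotype, so the sources differ on the number of mice behind a library. Reads of *Xist* and of Y-chromosome genes were present in all 6 libraries, and whether libraries were pools was not tested. The methods also name more than 1 independent immunization and do not assign libraries to them. With 1 library per genotype and day, the error of every comparison is the scatter of the 6 libraries around a model of genotype and day, and this scatter may be partly technical. Mice of both sexes were used and were matched for age and sex within experiments, with ages spread over several months, and the age behind each library is not given in the sources used here.

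Sphingosine-1-phosphate (S1P) is abundant in blood and lymph and scarce inside lymphoid tissue, and lymphocytes that carry S1PR1 follow this gradient out of the tissue. KLF2, a zinc-finger transcription factor of quiescent lymphocytes, drives transcription of *S1pr1* and is itself induced by FOXO1. CCR7, the receptor for CCL19 and CCL21, draws cells to the T zone, and GPR183 (EBI2), an oxysterol receptor, draws activated B cells to the outer follicle. GC B cells are known for low levels of these exit and repositioning receptors and for high *S1pr2*, whose product couples to G alpha 13 and confines cells to the GC.

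Total counts were 21353438 to 27435124 per library. Of the 27179 genes, 11005 passed the filter on mean level and were tested, and all 6 genes described here were among them. The filter used the mean over all 6 libraries, and *Klf3* was under 1 CPM (counts-per-million, scaled by TMM) in 2 of 3 WT libraries. *Il21r*, which checks the labels, was present at 346, 263 and 247 CPM in WT on days 7, 10 and 14, and at 106, 128 and 113 CPM in Il21r-/-, a log2 fold change of -1.29 ± 0.13 (SE; edgeR's quasi-likelihood test, adjusted p = 0.00137). The lowest WT library stood above the highest Il21r-/- library, and reads of *Il21r* remained in all 3 libraries of the mutant.

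*Klf2* (GRCm38.p6, chr8:72319062-72321654, plus strand) was higher in Il21r-/- GC B cells on all 3 days and lower at each later day in both genotypes. In WT it measured 17.9 CPM on day 7, 11.1 on day 10 and 8.38 on day 14. In Il21r-/- it measured 38.8, 23.7 and 15.0 CPM on the same days. The mutant library was 2.17-fold higher on day 7, 2.13-fold on day 10 and 1.79-fold on day 14. Every mutant library was above the WT library of its own day, but the groups overlapped across days, since the mutant on day 14 was below WT on day 7. The difference over 3 days, adjusted for a linear day effect, was 1.02 ± 0.13 on the log2 scale (SE, n = 3 libraries per genotype), or 2.03-fold. In bulk RNA, fewer cells that express a gene and less RNA per cell cannot be told apart, and this holds for every level given here.

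*Klf3* (chr5:64803521-64832901, plus strand) encodes a KLF-family factor known mainly as a repressor that binds the same CACCC-type sites as other KLF proteins. It was the least abundant of the 6 genes. WT held 34, 11 and 10 reads of *Klf3* on days 7, 10 and 14, which is 1.25, 0.447 and 0.468 CPM. Il21r-/- held 72, 63 and 29 reads, or 3.14, 2.40 and 1.16 CPM. *Klf3* was thus 2.52-fold, 5.37-fold and 2.49-fold higher in the mutant, with the day 10 ratio resting on 11 WT reads. The groups just overlapped, since the mutant on day 14 was at 1.16 CPM and WT on day 7 at 1.25. Over 3 days the difference was 1.65 ± 0.30 on the log2 scale. The annotation places 2 predicted genes, *Gm38457* and *Gm31684*, over parts of the *Klf3* locus, and how reads shared with them were counted is not given in the sources used here.

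The 250 bases before the annotated transcription start are shown for both KLF genes and for *Gpr183*, the gene with the largest genotype difference, because KLF factors and the inducers of *Klf2* act through short motifs of this kind. The sequences are those of RefSeq on GRCm38.p6, read 5′ to 3′ on the strand of the gene. The table used held 4 of the 6 genes, *S1pr1* and *Ccr7* not being among them. Capitals mark every CACCC, the core letters of a KLF site, which on the opposite strand reads GGGTG. In *Klf2* they also mark 1 stretch in which CTA and TAG flank 4 bases, called MEF2-type here. The search allowed any 4 bases between them and is therefore looser than an MEF2 site. In *Klf2* these 4 bases are AATT, only A and T.
*Klf2*, chr8:72318812-72319061, plus strand: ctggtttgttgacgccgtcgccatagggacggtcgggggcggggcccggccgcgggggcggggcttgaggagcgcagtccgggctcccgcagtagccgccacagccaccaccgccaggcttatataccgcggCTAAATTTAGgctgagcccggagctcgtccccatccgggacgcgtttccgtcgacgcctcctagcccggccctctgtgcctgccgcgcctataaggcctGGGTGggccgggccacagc
*Klf3*, chr5:64803271-64803520, plus strand: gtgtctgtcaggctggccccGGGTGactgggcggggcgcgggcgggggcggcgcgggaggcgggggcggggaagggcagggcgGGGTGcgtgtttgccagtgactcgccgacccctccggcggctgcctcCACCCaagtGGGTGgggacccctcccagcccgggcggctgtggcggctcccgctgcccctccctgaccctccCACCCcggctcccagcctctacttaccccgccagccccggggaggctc
*Gpr183*, chr14:121965194-121965443, minus strand: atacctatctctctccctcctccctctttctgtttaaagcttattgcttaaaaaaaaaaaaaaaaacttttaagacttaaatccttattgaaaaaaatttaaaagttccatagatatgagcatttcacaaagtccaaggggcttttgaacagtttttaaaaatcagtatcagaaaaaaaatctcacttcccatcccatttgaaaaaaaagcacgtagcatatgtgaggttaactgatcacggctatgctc

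The *Klf2* window held 1 CACCC and the MEF2-type stretch, which began 118 bases before the start. The *Klf3* window held 5 CACCC, that of *S1pr4* held 1, and that of *Gpr183* held none. Among 32817 windows of the same length in the table, 52% held a CACCC on either strand. The MEF2-type form, with any 4 bases between CTA and TAG, was in 3.2%, which is not the share with an MEF2 site. TGTTTAC, a FOXO core searched on both strands, was in none of the 4 windows and in 3.16% of all windows. The windows of *Klf2* and *Klf3* were 71.2% and 78.4% G and C, whereas those of *S1pr4* and *Gpr183* were 38.8% and 32.0%, on either side of the 52.4% median of all windows. A match of letters is a description of the window and says nothing of occupancy, and a window without a match says only that these letters are not in it.

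*S1pr1* (chr3:115710433-115715055), the receptor that takes lymphocytes along the S1P gradient and a known target of KLF2, was higher in the mutant than in WT on all 3 days. Its WT levels were 17.8, 14.6 and 9.79 CPM on days 7, 10 and 14. Its Il21r-/- levels were 48.6, 35.0 and 22.6 CPM. The lowest mutant library, that of day 14, was 4.83 CPM above the highest WT library, that of day 7, so the groups did not overlap. The ratio of mutant to WT was 2.74 on day 7, 2.39 on day 10 and 2.31 on day 14. The log2 difference over 3 days was 1.31 ± 0.11, or 2.48-fold, with the smallest standard error of the 6 genes.

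*S1pr4* (chr10:81497745-81500137), an S1P receptor largely restricted to blood cells, was the most abundant of the 6 genes and differed least between genotypes. WT libraries had 71.5, 37.1 and 33.1 CPM and Il21r-/- libraries 87.3, 56.8 and 41.8 CPM on days 7, 10 and 14. The mutant was higher on each day, but both later mutant libraries lay below WT on day 7, so the groups overlapped widely. The ratio was 1.22, 1.53 and 1.27 on the 3 days. The log2 difference over 3 days was 0.40 ± 0.14. *S1pr4* was the only one of the 6 that did not pass the threshold over 3 days with a linear day effect. It passed with day as a block, where 2519 of all tested genes passed in either direction. It also passed without the day 10 library of Il21r-/-, where 2165 did. The fit of all libraries with a linear day effect called 651. Over all 6 omissions the log2 difference of *S1pr4* was between 0.26 and 0.55.

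*Ccr7* (chr11:99144199-99155077), the T-zone homing receptor, was low in WT and several-fold higher in the mutant. WT had 3.26, 1.58 and 2.11 CPM on days 7, 10 and 14, from 89, 39 and 45 reads. Il21r-/- had 10.3, 8.50 and 5.78 CPM, from 236, 223 and 144 reads. The groups did not overlap, the lowest mutant library standing 2.52 CPM above the highest WT library. The ratio was 3.16 on day 7, 5.36 on day 10 and 2.74 on day 14, and the log2 difference over 3 days was 1.81 ± 0.23.

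*Gpr183* (chr14:121952331-121965193), the oxysterol receptor EBI2, had the largest genotype difference of the 6. In WT it measured 14.5 CPM on day 7 and 5.37 and 4.78 CPM on days 10 and 14. In Il21r-/- it measured 48.7, 39.8 and 21.7 CPM. The day 14 mutant library was 7.21 CPM above the day 7 WT library, and the groups did not overlap. The mutant was 3.37-fold higher on day 7, 7.41-fold on day 10 and 4.54-fold on day 14. Over 3 days the log2 difference was 2.23 ± 0.21, or 4.69-fold.

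*Gpr183* lies within the locus of *Ubac2*, and the library kit does not mark strand, so reads from sequence that both genes share cannot be told apart. *Ubac2* was at 134, 123 and 117 CPM in WT and at 136, 128 and 133 CPM in Il21r-/-. Its log2 fold change was 0.09 ± 0.09 and was not significant (edgeR's quasi-likelihood test, adjusted p = 0.641). The genotype difference listed for *Gpr183* was therefore not seen in the counts of the gene around it. No annotated gene overlapped *Klf2*, *S1pr1*, *S1pr4* or *Ccr7*.

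**Figure D1:**
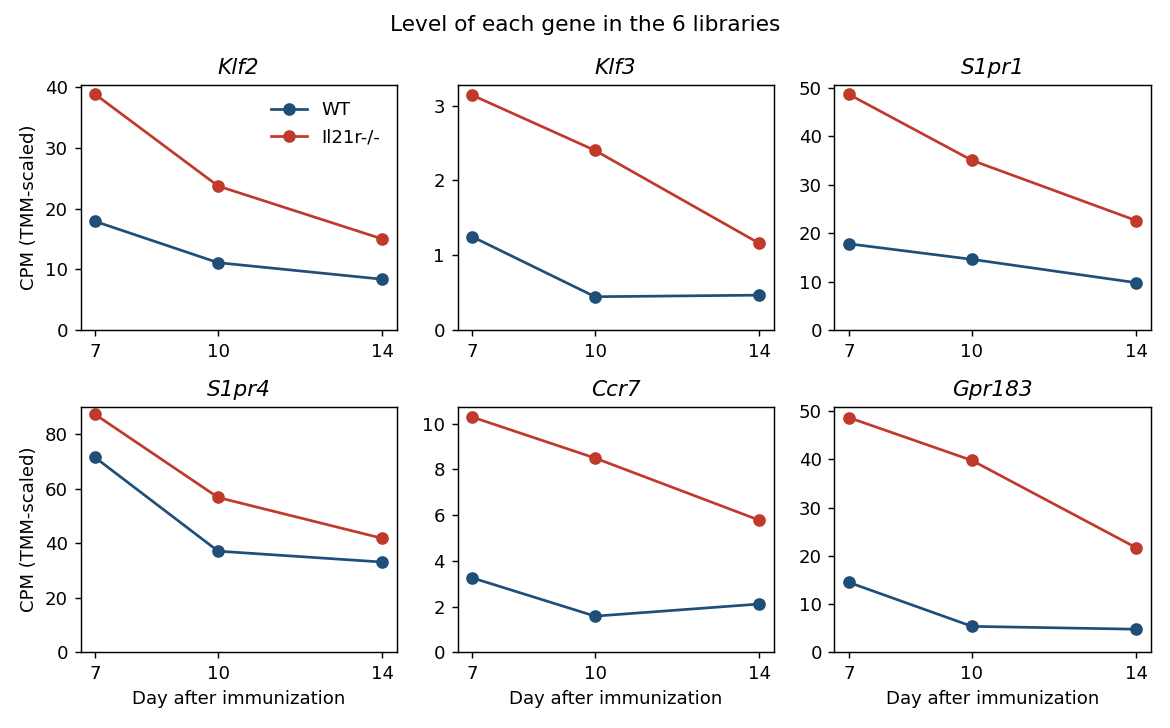
Level of each of the 6 genes (CPM with TMM scaling, each vertical axis from 0) against day after immunization, 1 point per library, with lines joining the libraries of a genotype. The mutant lies above WT on every day in every panel, and *Gpr183* in Il21r-/- spans 21.7 to 48.7 CPM against 4.78 to 14.5 in WT.

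Since the genes were selected on this contrast, the counts of those past the threshold describe the selection and carry no test. Over 3 days, 5 of the 6 passed at an adjusted p of 0.05 in the higher direction (edgeR's quasi-likelihood test), where 4.52% of all tested genes did so and 1.40% passed in the lower direction. With day entered as a block, so that same-day libraries were paired, 6 of 6 passed, against 13.6% of all tested genes higher and 9.33% lower. On every one of the 3 days the mutant level of all 6 was above that of WT, as it was for 27.9% of all tested genes. In *S1pr1*, *Ccr7* and *Gpr183* every mutant library exceeded every WT library, which held for 10.0% of all tested genes. The median log2 difference of the 6 was 1.48, whereas that of all tested genes was 0.01. Leaving out each library in turn, *Klf2*, *S1pr1*, *Ccr7* and *Gpr183* passed in all 6 fits. *Klf3* passed in 4 of them and did not without the day 7 library of Il21r-/- or the day 14 library of WT. In those fits 441 and 132 of all tested genes passed in either direction, against 651 with every library.

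Day by day, fewer of the 6 genes passed than over 3 days, except on day 10. On day 7, *Klf2*, *S1pr1*, *Ccr7* and *Gpr183* passed edgeR's likelihood ratio test, 4 of 6, where 0.872% of all tested genes passed in the higher direction. On day 10, *Klf3* passed too, 5 of 6 against 2.60%. On day 14, *S1pr1*, *Ccr7* and *Gpr183* passed, 3 of 6 against 2.55%. With DESeq2's Wald test, 2 of the 6 passed on day 7, as did 67 of all tested genes, against 118 by the likelihood ratio test. *Klf3*, *S1pr4*, *Ccr7* and *Gpr183* had their largest estimates on day 10, at 2.41 ± 0.60, 0.62 ± 0.28, 2.42 ± 0.43 and 2.89 ± 0.38 on the log2 scale. *Klf2* and *S1pr1* had theirs on day 7, at 1.11 ± 0.26 and 1.45 ± 0.23. For *Klf2* the estimates of the 3 days, 1.11, 1.09 and 0.84, lay within about 1 standard error of each other, and the same was true of *S1pr1* with 1.45, 1.26 and 1.21. Each daily estimate compares 1 library with 1 library, and the days were not tested against each other gene by gene. The day 14 count of the 6 was 2 without the day 7 library of Il21r-/- and 4 without its day 10 library. Of all tested genes, 401 and 704 passed on day 14 in these fits, against 361 with every library.

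**Figure D2:**
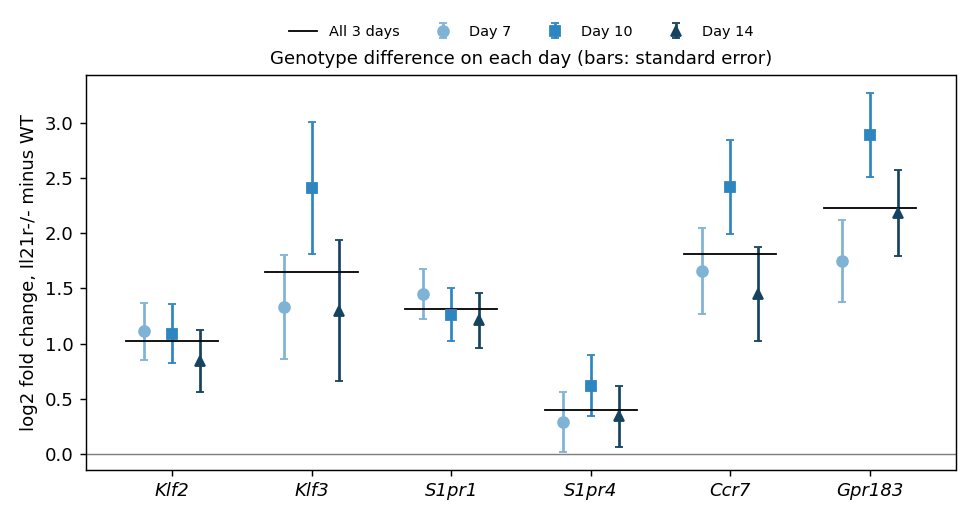
Log2 fold change of Il21r-/- over WT for each gene on days 7, 10 and 14 (points, with standard errors as bars) and over all 3 days (black lines). All 18 daily points are above 0, from 0.29 for *S1pr4* on day 7 to 2.89 for *Gpr183* on day 10.

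The levels of all 6 genes were lower on day 14 than on day 7 in both genotypes. In WT, the day 14 level as a share of day 7 was 46.8% for *Klf2*, 37.6% for *Klf3*, 55.1% for *S1pr1*, 46.2% for *S1pr4*, 64.6% for *Ccr7* and 33.0% for *Gpr183*. In Il21r-/- the shares were 38.7%, 37.0%, 46.5%, 47.9%, 56.1% and 44.5% in the same order. *Klf2*, *S1pr1*, *S1pr4* and *Gpr183* stepped down from day 7 to 10 to 14 in both genotypes, 4 of 6, as did 11.2% of all tested genes. *Klf3* and *Ccr7* did so in the mutant, while in WT their day 14 values were slightly above those of day 10.

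The fitted slope was steepest for *Klf3*, at -0.209 ± 0.053 log2 units per day, followed by *Gpr183* at -0.198 ± 0.036 and *Klf2* at -0.176 ± 0.023. It was -0.152 ± 0.025 for *S1pr4*, -0.142 ± 0.020 for *S1pr1* and -0.106 ± 0.039 for *Ccr7*. *Klf2*, *S1pr1*, *S1pr4* and *Gpr183* passed the quasi-likelihood test of the linear day effect, 4 of 6, where 3.36% of all tested genes passed as falling and 1.07% as rising. None of the 6 passed without the day 7 library of WT, the day 7 library of Il21r-/- or the day 14 library of WT. With the day 14 library of Il21r-/- left out, 1 passed. Of all tested genes, 0, 36, 5 and 142 passed in these fits, in the same order, against 488 with every library. The loss was thus general and not particular to the 6. *Cd38*, which encodes the surface marker that the sort excluded, moved in the same direction. It was at 26.6, 5.98 and 2.29 CPM in WT and 21.3, 11.7 and 3.65 CPM in Il21r-/- on days 7, 10 and 14, and its day effect was significant (edgeR's quasi-likelihood test, adjusted p = 0.00465). That call, too, was lost without the day 7 library of WT, as was that of every other gene. *Cd38* is also a memory B cell marker, and other such markers, named below for genotype, ran both ways with day. The slopes of *Ccr6* and *Pdcd1lg2* were -0.285 and -0.089 log2 units per day. Those of *Nt5e*, *Il9r* and *Cd80* were 0.181, 0.169 and 0.168. The part of *Cd38* in the time course of the 6 genes was not tested.

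The genotypes' slopes differed by little compared with their errors. The difference in slope, mutant minus WT, was -0.039 ± 0.051 log2 units per day for *Klf2*, 0.012 ± 0.119 for *Klf3* and -0.034 ± 0.044 for *S1pr1*. It was 0.005 ± 0.057 for *S1pr4*, -0.031 ± 0.087 for *Ccr7* and 0.059 ± 0.078 for *Gpr183*. With errors of this size and 2 residual degrees of freedom, these data do not resolve a difference in time course for any of the 6. Of all 11005 genes, 0 (0.00%) passed edgeR's quasi-likelihood test of the slope difference, and 118 had an unadjusted p under 0.05.

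To compare levels between genes, CPM values were divided by gene length in kilobases (RPKM). In WT the mean order was *S1pr4* at 19.7 RPKM, *Klf2* at 6.87, *S1pr1* at 4.64, *Gpr183* at 2.79, *Ccr7* at 1.17 and *Klf3* at 0.311. *S1pr4* was above *Klf2*, and *Ccr7* above *Klf3*, with no overlap of their ranges over the 3 libraries. The ranges of *Klf2* and *S1pr1*, of *S1pr1* and *Gpr183*, and of *Gpr183* and *Ccr7* overlapped, although the order was the same in each WT library. In Il21r-/- the order was *S1pr4* at 25.9 RPKM, *Klf2* at 14.2, *Gpr183* at 12.5, *S1pr1* at 11.7, *Ccr7* at 4.15 and *Klf3* at 0.966. *Gpr183* thus stood next to *Klf2* and *S1pr1* in the mutant, and the ranges of the 4 most abundant genes overlapped with their neighbours. The gaps from *S1pr1* to *Ccr7* and from *Ccr7* to *Klf3* were free of overlap.

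Of the other S1P receptor genes, *S1pr2*, the GC confinement receptor, was by far the most abundant, at 220, 197 and 165 RPKM in WT and 186, 163 and 157 RPKM in Il21r-/- on days 7, 10 and 14. Its log2 fold change was -0.20 ± 0.10 and did not pass (edgeR's quasi-likelihood test, adjusted p = 0.28). With day as a block the adjusted p was 0.0504. *S1pr1* stood at 2.66%, 2.45% and 1.95% of the *S1pr2* level in WT and at 8.64%, 7.10% and 4.74% in the mutant. *S1pr4* stood at 13.5%, 7.85% and 8.36% of *S1pr2* in WT and at 19.6%, 14.6% and 11.1% in the mutant. Transcripts of *S1pr2* thus outnumbered those of *S1pr1* and those of *S1pr4* per length in all 6 libraries.

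*S1pr3*, a further S1P receptor gene, was at 57.2, 29.0 and 24.7 CPM in WT and 66.4, 91.8 and 66.5 CPM in Il21r-/-. It was higher in the mutant by 1.10 ± 0.23 on the log2 scale (edgeR's quasi-likelihood test, adjusted p = 0.0318). The call was lost with day as a block (adjusted p = 0.265) and in 4 of the 6 fits that left out 1 library, namely either library of day 10 or of day 14. On day 7 the genotypes differed by 0.21 only, and on day 10 by 1.66. *S1pr5* had at most 1 read in any library.

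**Figure D3:**
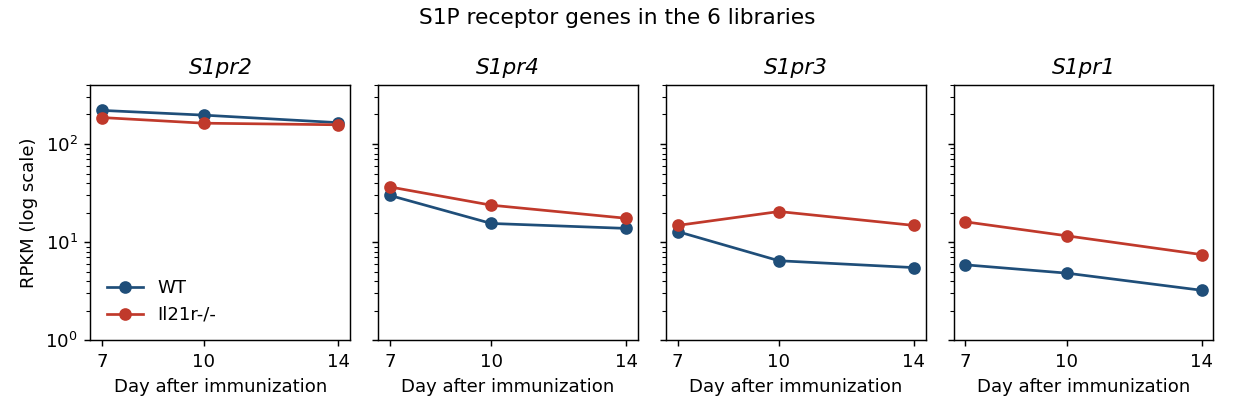
RPKM (log axis) of 4 S1P receptor genes against day after immunization, 1 point per library. *S1pr2* lies between 157 and 220 RPKM in all 6 libraries, above *S1pr4*, *S1pr3* and *S1pr1*. *S1pr1* in Il21r-/- runs from 16.1 to 7.46 RPKM, above WT at 5.87 to 3.23.

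Genes connected with these 6 were examined through 10 lists covering regulators of *Klf2*, S1P handling, receptor signalling, other chemoattractant receptors and adhesion molecules. Of 118 listed symbols, 87 were tested, and over 3 days 14 were higher and 3 lower in Il21r-/-, 16.1% and 3.45% of those tested, beside 4.52% and 1.40% of all tested genes. The median log2 fold change of the 87 was 0.06, beside 0.01 for all tested genes. With day as a block, 22 were higher and 6 lower, beside 13.6% and 9.33% of all tested genes. The lists were written with results of these libraries known, so their counts are not independent of them.

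Upstream of *Klf2*, 1 of 11 tested inducers and FOXO and MEF2 factors was higher and none was lower. *Foxo1*, the factor best known for inducing *Klf2* in lymphocytes, was at 164, 148 and 128 CPM in WT and 146, 172 and 138 CPM in Il21r-/-, with a log2 fold change of 0.06 ± 0.11 (edgeR's quasi-likelihood test, adjusted p = 0.794). *Foxo3* was higher in the mutant by 0.86 ± 0.17 (adjusted p = 0.0242), a call kept in 2 of the 6 fits that left out 1 library. Of 9 other KLF genes tested, *Klf12* alone passed, at 0.550, 0.569 and 0.702 CPM in WT and 1.48, 3.31 and 2.61 CPM in the mutant, a log2 fold change of 2.01 ± 0.34 (adjusted p = 0.00991) that was lost without the day 14 library of WT. *Klf4* had at most 6 reads in a library.

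Of the 12 tested genes of S1P synthesis, transport and breakdown, 2 were higher and 1 lower in the mutant. *Spns2*, an S1P transporter, was at 1.14, 0.772 and 0.468 CPM in WT and 2.75, 2.44 and 1.16 CPM in Il21r-/- (log2 fold change 1.42 ± 0.26, edgeR's quasi-likelihood test, adjusted p = 0.014). *Sgpp2*, an S1P phosphatase gene, was higher by 0.85 ± 0.20 (adjusted p = 0.0481), and *Plpp1*, a lipid phosphatase gene, was lower at -0.66 ± 0.11 (adjusted p = 0.0125). The call was kept in 4 of the 6 fits that left out 1 library for *Spns2*, in 3 for *Plpp1* and in 1 for *Sgpp2*. Of the enzymes that make or modify the ligand of EBI2, only *Cyp27a1* was abundant enough to test, and it did not pass.

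Among 7 tested genes of receptor desensitization and internalization, 2 were higher. *Cd69*, whose product binds S1PR1 and removes it from the cell surface, was at 15.7, 13.5 and 12.7 CPM in WT and 24.7, 22.9 and 23.0 CPM in Il21r-/-, with no overlap of the groups. The log2 fold change of *Cd69* was 0.76 ± 0.12 (edgeR's quasi-likelihood test, adjusted p = 0.00865), and the call was lost without either library of day 14. *Grk5*, a receptor kinase gene, was higher by 0.89 ± 0.21 (adjusted p = 0.0396), which held in 1 of those 6 fits. *S1pr1* and *Cd69*, with opposite roles at the cell surface, were thus both higher at the RNA level in the mutant.

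Downstream of the receptors, few signalling genes passed. Of 18 tested genes of G alpha i signalling and motility, *Gnb4*, a G protein beta subunit gene, was the 1 that passed, at 39.7, 51.8 and 49.5 CPM in WT and 94.5, 84.4 and 91.0 CPM in the mutant (log2 fold change 0.94 ± 0.12, edgeR's quasi-likelihood test, adjusted p = 0.0036, kept in all 6 fits without 1 library). With day as a block, 5 genes of this list were higher and 1 lower. None of 8 genes of the G alpha 12 and 13 pathway passed in either direction, with or without the block. *Gna13* itself had a log2 fold change of -0.06 ± 0.10 (adjusted p = 0.791).

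Among 9 tested genes of other chemoattractant receptors, 3 were higher and 1 lower in Il21r-/-. *Ccr4* had the largest change, from 0.696, 0.528 and 0.234 CPM in WT to 6.59, 8.61 and 9.47 CPM in the mutant (log2 fold change 4.02 ± 0.35, edgeR's quasi-likelihood test, adjusted p = 0.000445). *Ccr10*, at 1.85 ± 0.32 (adjusted p = 0.0118), and *Ccr6*, at 1.33 ± 0.23 (adjusted p = 0.0121), were higher. *Cxcr3* was lower at -1.48 ± 0.27 (adjusted p = 0.0145). *Cxcr5*, the follicle-homing receptor, and *Cxcr4*, the dark-zone receptor, did not pass, with log2 fold changes of 0.08 ± 0.13 (adjusted p = 0.783) and -0.08 ± 0.13 (adjusted p = 0.784). Of these calls, that of *Ccr4* was kept in all 6 fits without 1 library, and those of *Ccr6*, *Ccr10* and *Cxcr3* in 5, 4 and 3. As a share of *Cxcr5* per length, *Gpr183* was at 2.81%, 1.60% and 1.66% in WT and 11.7%, 9.38% and 6.53% in the mutant, and *Ccr7* at 0.942%, 0.705% and 1.09% in WT and 3.68%, 2.98% and 2.59% in the mutant.

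Genes of homing and adhesion moved in both directions. *Cd55*, a complement regulator gene, was at 11.5, 8.09 and 3.89 CPM in WT and 24.3, 17.1 and 12.6 CPM in Il21r-/-, a log2 fold change of 1.26 ± 0.15 (edgeR's quasi-likelihood test, adjusted p = 0.00304) that was kept in all 6 fits without 1 library. *Itgb7* was higher by 0.66 ± 0.13 (adjusted p = 0.0227), kept in 2 of those fits, and *Itgb1* was lower at -0.60 ± 0.10 (adjusted p = 0.0112), kept in 4.

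**Figure D4:**
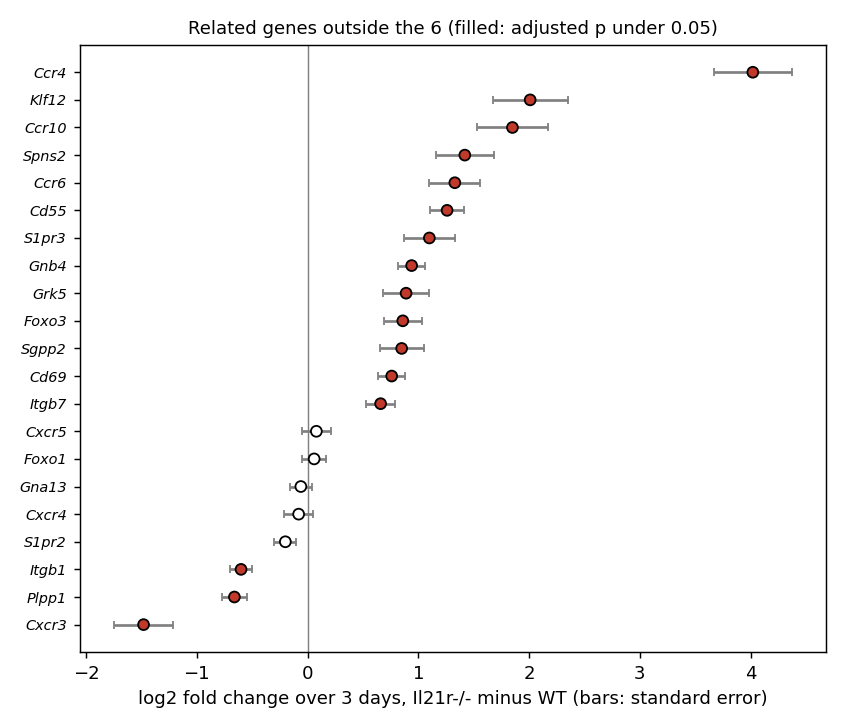
Log2 fold change over 3 days, Il21r-/- minus WT, of the related genes named in the text, with standard errors as bars. Filled points passed edgeR's quasi-likelihood test at an adjusted p of 0.05, from -1.48 for *Cxcr3* to 4.02 for *Ccr4*. The open points of *Cxcr5*, *Foxo1*, *Gna13*, *Cxcr4* and *S1pr2* lie within 0.20 of 0.

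For each of the 6 genes, the 3 tested genes with the most similar pattern were found by the root mean square (RMS) difference of their centered log2 CPM over the 6 libraries. They are given as a description, since genotype and day are shared by all profiles. Closest to *Klf2* were *AA467197* (RMS difference 0.0962), *Art4* (0.118) and *Slc37a2* (0.146). Closest to *Klf3* were *Zmynd11* (0.16), *Zyx* (0.182) and *Ppl* (0.203). The *S1pr1* profile was nearest to a gene listed without a symbol, then to *Scn4a* (0.135) and to the S1P transporter gene *Spns2* (0.148). *S1pr4* had the closest matches, *Pld4* (0.0568), *Cd2* (0.0763) and *Gm2a* (0.079), beside an SD of its own profile of 0.507. For *Ccr7* they were *Rflnb* (0.154), *Mcoln3* (0.199) and *Fbxo32* (0.205), and for *Gpr183* they were *Fcgrt* (0.152), *Asb2* (0.201) and *Naip5* (0.201). None of the 6 genes was among the 3 nearest of another.

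The labelled cell type was checked with marker lists, because other lymphocytes carry far more of these receptors than GC B cells do. All 11 GC B cell markers were tested and none passed over 3 days (edgeR's quasi-likelihood test), beside 4.52% higher and 1.40% lower of all tested genes. With day as a block 4 were higher and 3 lower, beside 13.6% and 9.33% of all tested genes. In absolute terms GC genes were abundant, their summed level being 10100 to 12100 CPM in WT and 10900 to 13700 CPM in Il21r-/-. *Ighd*, a gene of naive B cells, had 21 to 44 reads per library and did not pass.

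Some markers of other B cell states moved with genotype beside the 6 genes. Of 5 follicular B cell markers, *Fcer2a* (CD23) was higher at 1.54 ± 0.15 (edgeR's quasi-likelihood test, adjusted p = 0.00119) and *Ighm* lower at -0.48 ± 0.11 (adjusted p = 0.0457, kept in 1 of the 6 fits without 1 library), and the list's sum was 535 to 1180 CPM in WT and 880 to 1330 CPM in the mutant. Of 7 memory B cell markers, *Il9r*, *Cd80*, *Pdcd1lg2* and *Ccr6* were higher and *Nt5e* lower, the last kept in 2 of the 6 fits without 1 library and *Pdcd1lg2* and *Ccr6* in 5, and their sum was 70.5 to 84.6 CPM in WT and 104 to 139 CPM in the mutant. *Il9r* had a log2 fold change of 2.30 ± 0.19 (adjusted p = 0.000646), and *Cd80* was 4.01-fold higher (adjusted p = 0.000976). Unlike the 6 genes, both were higher on day 14 than on day 7 in each genotype, as was *Nt5e*. *Pdcd1lg2* and *Ccr6* were lower on day 14 than on day 7 in each genotype, so the called memory markers did not share a time course. *Cd38*, in both of those lists, did not pass for genotype. Of 6 plasma cell markers, *Xbp1* was higher and *Prdm1* lower, each kept in only 1 of the 6 fits without 1 library. The list's sum was 2520 to 2740 CPM in WT and 2770 to 3620 CPM in the mutant. Most of that sum was *Jchain*, which did not pass over 3 days, at 2283 to 2516 CPM in WT and 2462 to 3314 CPM in the mutant. *Sdc1* and *Tnfrsf17* were too low to be tested.

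Markers of cells other than B cells were also summed. Of 10 T cell markers, 2 were tested and *Lat* was higher (kept in 2 of the 6 fits without 1 library), the list's sum being 4.07 to 9.67 CPM in WT and 7.39 to 14.3 CPM in the mutant, with 0 to 2 reads of *Cd3e* per library. The sums were 2.52 to 6.60 and 2.63 to 8.86 CPM for myeloid markers, with *Mpo* and *Elane* at 0 reads, and 9.92 to 19.0 and 4.80 to 33.6 CPM for erythroid markers, none of which passed. Of 6 endothelial markers, which summed to 24.4 to 50.5 CPM in WT and 36.8 to 66.4 CPM in the mutant, only *Pecam1* was tested and it was higher (kept in 3 of those fits). It made up nearly all of that sum, at 24.0 to 49.9 CPM in WT and 36.2 to 65.5 CPM in the mutant, while *Tek* and *Emcn* had 0 reads, *Kdr* 0 to 2 and *Vwf* 0 to 1. Natural killer cell markers summed to 0.488 to 1.17 CPM in WT and 1.64 to 1.92 CPM in the mutant, with *Ncr1* at 0 reads and none of 6 tested. Most of each sum was *Prf1*. It was at 0.77, 0.285 and 0.515 CPM in WT and 1.48, 1.26 and 1.04 CPM in the mutant on days 7, 10 and 14. The part of these cell types and states in the levels of the 6 genes was not tested.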

How the data were processed

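RNA of 6 libraries was sequenced as single-end reads on a strand-unaware kit. The authors used CASAVA 1.8.2, aligned reads to mm10 (GRCm38) with Rsubread, pooled technical replicates, counted reads on genes with featureCounts and its RefSeq annotation, and deposited whole-number counts per gene without normalization, with the gene length in bases. The version of Rsubread and the strand and multi-mapping settings are not given in the sources used here. The counts of single libraries equalled those of the joint table in 6 of 6 libraries. No column lacked a sample.

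Entrez identifiers were matched to symbols in RefSeq tables of GRCm38.p6 (25275) and GENCODE M21 (18); 1886 had none and held 1.57 to 2.24% of counts. After removal of *Xist*, genes on the Y chromosome, variable genes of Ig and any gene whose average log2 CPM was under 0, 11005 remained. R 4.3.3, edgeR 4.0.16 and limma 3.58.1 were used. TMM factors were 0.958 to 1.04, and CPM and RPKM carry them. Dispersion was estimated robustly on genotype plus linear day (common dispersion 0.017, 3 residual degrees of freedom). That design gave the quasi-likelihood tests of genotype and day. A genotype by day product gave the slope difference, and daily effects came from likelihood ratio tests in which each day had its own mean. P-values were adjusted by the Benjamini-Hochberg method across the 11005 genes and called under 0.05. Positive log2 values are higher in Il21r-/-. The procedure was also run on simulated data with independent libraries, no day effect and the same dispersion of 0.017 for every gene. That setting is simpler than these data and does not test the calls given here. Depth sets counting error only.

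The 6 genes and all lists were chosen with earlier results of these data known. Genes named from the lists were those called over 3 days (at most 4 per list) and *S1pr2*, *Cd69*, *Foxo1*, *Cxcr4*, *Cxcr5* and *Gna13*; 1 listed gene is not reported here. Further genes were named as nearest profiles, as called markers, as the check of labels or as overlapping a locus. *Cd38*, *Jchain*, *Prf1*, *Klf4*, *S1pr5*, *Cyp27a1*, *Ighd* and the markers named at few reads were chosen after their values were seen. The labels share days between genotypes, and libraries of a day deviated together from their genotype means over 11005 genes (r = 0.64, 0.413 and 0.645 on days 7, 10 and 14), so 1 alternative used day as a block. Others were DESeq2 size factors, other filters, the Wald test of DESeq2 1.42.0, a likelihood ratio test and leaving out each library.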

Additional observations from a re-analysis of the deposited data

How the results depend on the processing

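The log2 differences of *Klf2*, *Klf3*, *S1pr1*, *S1pr4*, *Ccr7* and *Gpr183* kept their direction under every alternative run, between 0.91 and 1.13, 1.40 and 1.92, 1.24 and 1.35, 0.26 and 0.55, 1.59 and 2.03, and 2.02 and 2.55. The number of the 6 that passed over 3 days was 4 to 6. Over all genes, 651 passed over 3 days (497 higher). This number was 991 without a filter (708 higher), 1193 by likelihood ratio test (837 higher), 2519 with day as a replicate block (1492 higher, 1027 lower), and 132 (without WT on day 14) to 2165 (without Il21r-/- on day 10) when a library was left out. Of the listed related genes 17 passed, 28 with the block, and 4 to 26 with the same omissions. The block ended the call of *S1pr3* and of no other named gene. For the linear day effect, 488 genes passed, 869 without a filter, 870 by DESeq2 and 0 (without WT on day 7) to 2177 (without Il21r-/- on day 10) with a library left out. On day 7, 118 genes passed and by DESeq2 67, including 2 of the 6 in place of 4. With a library of another day left out, 104 to 220 passed on day 7, and 341 to 704 in place of 361 on day 14, both highest without Il21r-/- on day 10. Omissions for days 10 and 14, for the members' counts on single days and for the day effect, and for the named related and marker genes were chosen after seeing the data. The causes were not tested. Depth limits *Klf3*, with 10 to 72 reads per library, more than the other genes.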
